A study of Nothobranchius furzeri with 6 samples.

Results

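The largest bipolar cluster of the killifish retina, numbered 8 in the authors' annotation, was examined on its own. Its members were all cells that the finer deposited annotation called bipolar and that carried cluster number 8, which gave 3195 of the 37243 cells of the series and 3195 of the 17770 cells called bipolar there. Bipolar cells formed 13 clusters in that annotation, and cluster 8 was set against the other 12 and followed across 3 ages. The fish were untreated wild-type females of the inbred strain GRZ-AD of Nothobranchius furzeri, the African turquoise killifish, and were 6, 12 or 18 weeks old. The GRZ strain is kept as an ageing model because of its short life. Each age had 2 libraries, and a library pooled the neural retinas of 3 fish at 6 weeks and of 2 fish at 12 and 18 weeks, so that the 6-week age and the number of pooled fish cannot be told apart. After removal of the pigment epithelium (RPE), the neural retina was digested with papain and captured with the 10x Genomics v3 3' chemistry, in which every captured transcript carries a unique molecular identifier (UMI) and is counted once. As p-values here rest on 2 pools per age, they measure the spread between pools and not between single fish.

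Bipolar cells are the interneurons that carry the photoreceptor signal to amacrine and ganglion cells. ON types respond to light onset through the metabotropic glutamate receptor mGluR6, the G protein Go and the channel TRPM1, and in fish also through glutamate transporters, whereas OFF types use ionotropic AMPA and kainate receptors. All bipolar types release glutamate from ribbon synapses that are tuned by GABA and glycine receptors, and the many types differ in the transcription factors and adhesion molecules that they carry.

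Cluster 8 was present in every library. It held 607 and 667 cells in the 6-week-old libraries, 525 and 546 in the 12-week-old libraries and 412 and 438 in the 18-week-old libraries, with 797835 to 1272489 UMIs summed per library and a median of 1542 to 2153 UMIs per cell. Of 3193 distinct cell barcodes, 2 occurred in more than 1 library. Its share of all cells that the broader annotation called bipolar was 17.8% and 19.3% at 6 weeks, 16.5% and 17.1% at 12 weeks and 17.7% and 17.6% at 18 weeks, and the 95% Wilson intervals of the 6 libraries together ran from 15.2% to 20.6% (counting error only). The 18-week-old libraries lay below both 6-week-old ones. The mean was 17.6% ± 0.0390 at 18 weeks and 18.5% ± 1.02 at 6 weeks (SD, n = 2 each), a difference of -0.909 percentage points that did not exceed the spread between libraries (two-sided exact permutation test over 90 assignments, p = 0.467, adjusted over the 3 pairs of ages p = 0.489). At 12 weeks the share was 1.77 percentage points lower than at 6 weeks (difference -1.77, same exact test, p = 0.0222, the smallest that the design allows, and 0.0667 after adjustment). The median UMIs per cell differed by 125 between 18 and 6 weeks, within the spread (exact permutation p = 0.644).

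CABP5A (XLOC_018375), a calcium-binding protein of bipolar cells and the marker given for this cluster, was detected but was not high for a bipolar cluster. Levels between clusters are given as CPM, the counts per 1000000 summed UMIs, averaged over the 6 libraries. CABP5A stood at 2914 CPM in cluster 8 (2538 to 3169 over the libraries) and at 10313 CPM in the other bipolar cells (9311 to 11082), and cluster 8 ranked 9 of 13. Clusters 13 and 16 were far higher, cluster 13 at 22969 CPM, and cluster 12 was lowest at 175 CPM. After every cell had been thinned to 1000 UMIs, 64.1% of cluster 8 cells carried a CABP5A UMI, against 69.2% of other bipolar cells, 11.5% of rods and 8.72% of Müller glia. The shares without thinning were 73.8%, 75.1%, 21.6% and 22.4%, at medians of 1837, 2003, 2050 and 3514 UMIs per cell. CABP5A was thus found in more cells of cluster 8 than of rods or Müller glia, and it was not highest in cluster 8 among the bipolar clusters. Of the 18 entries on the list of bipolar markers, 14 reached 20 CPM in cluster 8 and 7 were higher there than in the other bipolar cells.

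The level differences between cluster 8 and other bipolar cells are a description without a test, because the clusters were made on these same genes. The comparison cells were the 14880 other cells annotated as bipolar, of which 305 were called Vip neurons in the finer annotation. The clusters most like cluster 8 over 5841 genes were cluster 19 (Pearson r = 0.83 on the log2 scale), cluster 25 (r = 0.81) and cluster 12 (r = 0.80), values across genes of the same libraries and so not independent. Of the 20 named genes with at least 100 CPM and the largest ratio to the other bipolar cells, 18 were higher in cluster 8 than in any other bipolar cluster. The glucagon receptor gene GCGRB (XLOC_006040) led with 575 CPM in cluster 8 and 14.2 CPM in the other bipolar cells, a ratio of 40.5, and no other bipolar cluster exceeded 38.4 CPM. In thinned cells a GCGRB UMI was found in 30.0% of cluster 8, 0.961% of other bipolar cells, 0.190% of rods and 0.257% of Müller glia. Guanine deaminase (GDA) followed with 116 and 2.92 CPM, the heparan sulphate proteoglycan GPC5 with 248 and 7.30 CPM, and the semaphorin co-receptor NRP1B with 197 and 8.68 CPM, in each case with cluster 8 first.

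The protocadherins PCDH11X and PCDH17 stood at 513 and 958 CPM in cluster 8, against 28.2 and 120 CPM in the other bipolar cells. The extracellular matrix protein tenascin-R (TNR) was at 270 CPM in cluster 8 and 30.1 CPM in the others. The ephrin EFNA1B was at 225 and 22.6 CPM, the leucine-rich repeat protein FLRT1A at 183 and 16.8 CPM, and the neurexophilin NXPH2 at 237 and 20.7 CPM, cluster 8 given first each time. NXPH2 and TMEM132E were the exceptions to first rank, since cluster 14 had 280 CPM of NXPH2 and cluster 25 had 307 CPM of TMEM132E. The homeobox gene RX1, the complexin CPLX2 and the prohormone convertase PCSK2 reached 238, 121 and 321 CPM in cluster 8, against 21.3, 5.84 and 42.9 CPM in the others. The remaining members were ENOX2(1OF2), FAM5B, TMEM145, CA16B, DBC1 and LMAN1, with ratios between 8.45 and 17.7. In the plot of the 20 genes the library ranges of cluster 8 and of the pooled other bipolar cells were apart for each of them. The choice by largest ratio favours this, so it adds no support.

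**Figure D1:**
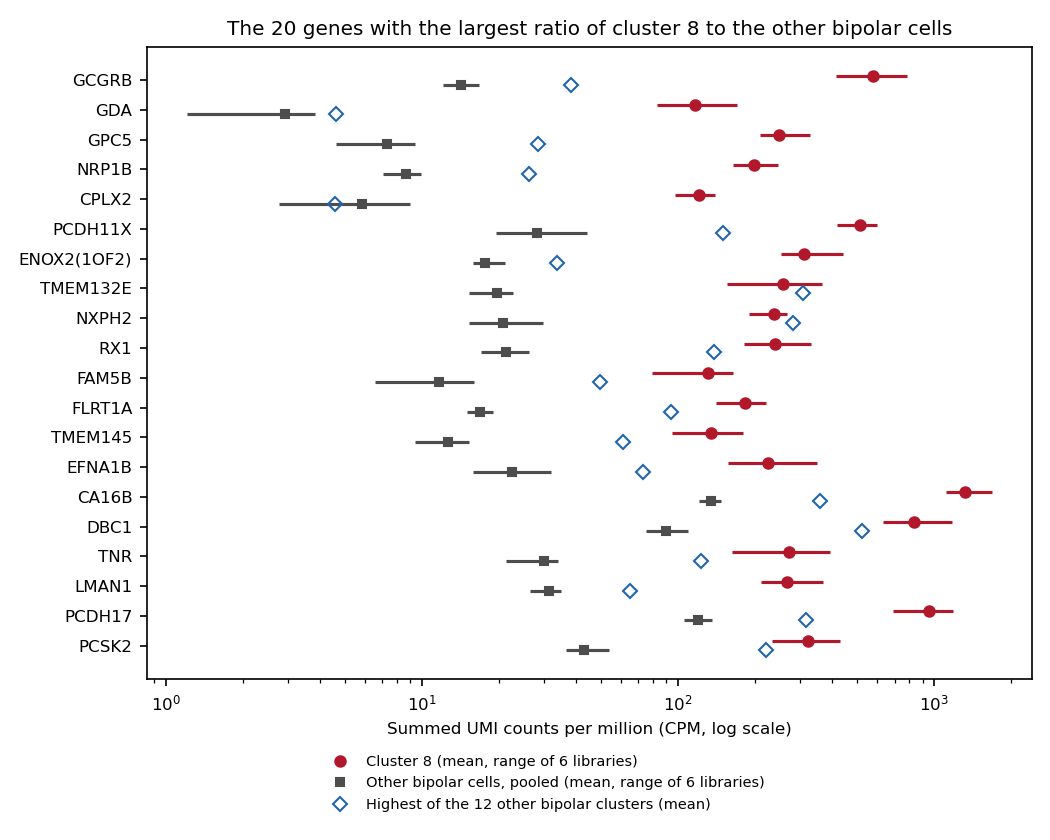
Summed UMI counts as CPM (log axis) of the 20 genes with the largest ratio, in cluster 8 (circles) and in the pooled other bipolar cells (squares), with bars for the range over 6 libraries, and in the highest of the 12 other bipolar clusters (diamonds). Cluster 8 lies right of the highest other cluster for 18 genes, and GCGRB has the widest gap, at 575 and 14.2 CPM.

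Genes of bipolar identity, among them transcription factors and the calcium-binding protein CABP5B, were carried in part. Of 53 entries on that list, 28 reached 20 CPM in cluster 8 and 25 were higher in cluster 8 than in the other bipolar cells. At least 2-fold higher in cluster 8 were 10 entries, and at least 2-fold lower were 16. The zinc-finger homeobox gene ZFHX4 was at 1648 CPM in cluster 8 and 383 CPM in the others, and SIX3 at 820 and 421 CPM. DMBX1B, a homeobox factor, stood at 29.1 and 0.463 CPM. PROX1(2OF2) was at 130 and 24.4 CPM, whereas the nuclear factor NFIXA went the other way, at 20.1 CPM in cluster 8 and 501 CPM in the other bipolar cells. OTX2 and CRX, the photoreceptor and bipolar homeobox factors, were at 83.4 and 396 CPM in cluster 8, against 65.5 and 587 CPM in the others.

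Both signalling pathways were present in the summed cells. Of 25 ON pathway entries, 15 reached 20 CPM in cluster 8, among them the channel TRPM1A (45.8 CPM in cluster 8, 61.4 CPM in the others), the Go subunit GNAO1B (593 and 486 CPM) and the beta subunit GNB3A (138 and 207 CPM). The receptor entry GRM6(1OF2) was barely detected, at 2.40 and 3.54 CPM. Of 27 OFF pathway entries, 13 reached 20 CPM, with the kainate receptor subunits GRIK1(1OF2) at 262 and 367 CPM and GRIK1A at 230 and 399 CPM, and their auxiliary subunit NETO1 at 572 and 300 CPM. At least 2-fold higher in cluster 8 than in the other bipolar cells were 2 ON and 4 OFF entries, and at least 2-fold lower were 4 ON and 5 OFF entries.

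Few release genes stood apart from the other bipolar cells. Of 57 ribbon release entries, 33 reached 20 CPM in cluster 8 and 5 were at least 2-fold higher and 3 at least 2-fold lower than in the other bipolar cells. The vesicular glutamate transporter SLC17A7 was at 749 CPM in cluster 8 and 745 CPM in the others, and the complexin CPLX4 at 3016 and 3142 CPM. STXBP1A, a Munc18 protein of vesicle fusion, was higher (237 and 82.0 CPM), and the active zone protein PCLOB lower (1167 and 2480 CPM, rank 12 of 13). Of 29 inhibitory receptor entries, 12 reached 20 CPM in cluster 8. At least 2-fold higher than in the others were 3, and at least 2-fold lower were 5. The GABA-A subunits GABRB2(2OF2) and GABRA6B (XLOC_017854), 2 of those higher, were at 141 and 395 CPM in cluster 8, against 34.1 and 181 CPM in the others. Of 47 potassium and HCN channel entries, 10 reached 20 CPM, 10 were at least 2-fold higher and 15 at least 2-fold lower. Among those higher were the A-type potassium channels KCND3 (426 and 135 CPM) and KCND2 (XLOC_019112, 251 and 101 CPM). The large-conductance channel KCNMA1A (786 and 317 CPM) was another.

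Cluster 8 was not uniform. Clustering of its own cells gave 12 groups of 507 to 27 cells, each present in all 6 libraries, and resolutions from 0.1 to 0.8 gave 11 or 12 groups. These groups were made from the same counts, so their levels are a description, and none of them is given a cell type name. TRPM1A, GNB3A and ISL1 were high in other groups than GRIK1(1OF2). Groups 4, 6, 9, 11 and 12, with 884 cells or 27.7% of cluster 8, had 97.3 to 191 CPM of TRPM1A, 367 to 810 CPM of GNB3A and 84.5 to 310 CPM of the LIM homeobox gene ISL1. Groups 1, 2, 3, 5, 7 and 8, with 2234 cells or 69.9%, had 1.198 to 4.46 CPM of TRPM1A, 2.64 to 21.6 CPM of GNB3A and 0 to 7.20 CPM of ISL1. GRIK1(1OF2) ran the other way, at 6.55 to 39.7 CPM in the first set of groups and 280 to 482 CPM in the second. Other pathway genes overlapped between the 2 sets, with GNAO1B at 202 to 2824 CPM in the first and 168 to 231 CPM in the second, GRIK1A at 47.7 to 319 and 145 to 464 CPM, and NETO1 at 0 to 142 and 7.20 to 1852 CPM. These sets were drawn after the values had been seen, by cut-offs of 50 CPM for TRPM1A and 250 CPM for GRIK1(1OF2). Their separation in TRPM1A, and the high GRIK1(1OF2) of the second set, were thus fixed by the cut-offs and add no support. The share of the first set was 27.7% and 30.6% at 6 weeks, 28.8% and 26.2% at 12 weeks and 27.9% and 23.5% at 18 weeks.

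The marker CABP5A divided the groups differently. In groups 2, 3, 9, 11 and 12, with 1155 cells or 36.2% of cluster 8, it stood at 6294 to 7322 CPM, and in the other 7 groups at 175 to 1586 CPM. High CABP5A was thus found in groups with TRPM1A (9, 11 and 12) and in groups with GRIK1(1OF2) (2 and 3). Most of the 20 genes listed above also varied between the groups. CPLX2 was at 898 CPM in group 3 and at most 15.9 CPM in any other group, and GDA at 1048 CPM in group 7 and at most 131 CPM elsewhere. CA16B and DBC1 were the only 2 of the 20 that reached 100 CPM in all 12 groups. GCGRB reached it in 9 groups and was highest in group 5 (1259 CPM) and lowest in group 3 (8.40 CPM).

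Each group had its own leading genes, chosen by their ratio to the rest of cluster 8. Group 1 carried the Wnt antagonist SFRP5 (177 CPM, against 1.32 CPM in the other groups), the serotonin receptor HTR2A (373 and 12.7 CPM) and most PCDH17 (4492 CPM). Group 2 carried PRSS35, LRRTM4(2OF3) and GSG1L(1OF2), an auxiliary subunit of AMPA receptors (384 and 20.8 CPM). Group 3 carried CPLX2, HS3ST1 and the T-box gene TBX4 (1050 and 10.3 CPM). Group 5 was led by PVRL2L and PCDH7B (2304 and 160 CPM), and also had the highest NETO1 (1852 CPM), GABRB2(2OF2) (534 CPM) and KCND2 (725 CPM).

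Groups 4 and 6 shared DMBX1B (140 and 151 CPM) and the highest GNAO1B (2824 and 1186 CPM). Group 4 was led by ANTXR1(2OF2) and included LMO4B (598 and 33.7 CPM in the rest), and group 6 by the sortilin-family receptor SORCS3 (2 OF 2) (884 and 3.08 CPM). Group 7 was led by IMPG1(2OF2) and CXCL14, and group 8 by CRHBP(1OF2), which binds corticotropin-releasing hormone (972 and 2.85 CPM). Groups 7 and 8 had 658 and 626 CPM of the Iroquois gene IRX6A, which was at 108 CPM or less in the other groups. Groups 9, 11 and 12 were small, with 117, 57 and 27 cells, and were led by FSTL4 (1 OF 2), PDE1A and DACH2.

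Group 10 stood apart. Its 77 cells were led by PRDM1A (144 CPM and 0 in the other groups) and FGFBP3 (632 and 7.31 CPM), a gene on the list for differentiating cells. SLC17A7 was at 170 CPM there, against 536 to 1088 CPM in the groups of the 2 sets above, and CPLX4 at 951 CPM, whereas the actin-binding protein MARCKSB was at 2062 CPM and at most 225 CPM elsewhere. RPS28, a small ribosomal subunit protein, reached 3696 CPM in group 10 and at most 1697 CPM elsewhere. Group 10 made up 3.13% and 5.10% of cluster 8 at 6 weeks (19 and 34 cells), 1.33% and 1.47% at 12 weeks (7 and 8 cells) and 1.70% and 0.457% at 18 weeks (7 and 2 cells). Both 6-week-old libraries were above the other 4, although these counts are small and no test was made on a group drawn from the data. The group map and the plot of shares give the same values for all 12 groups.

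**Figure D2:**
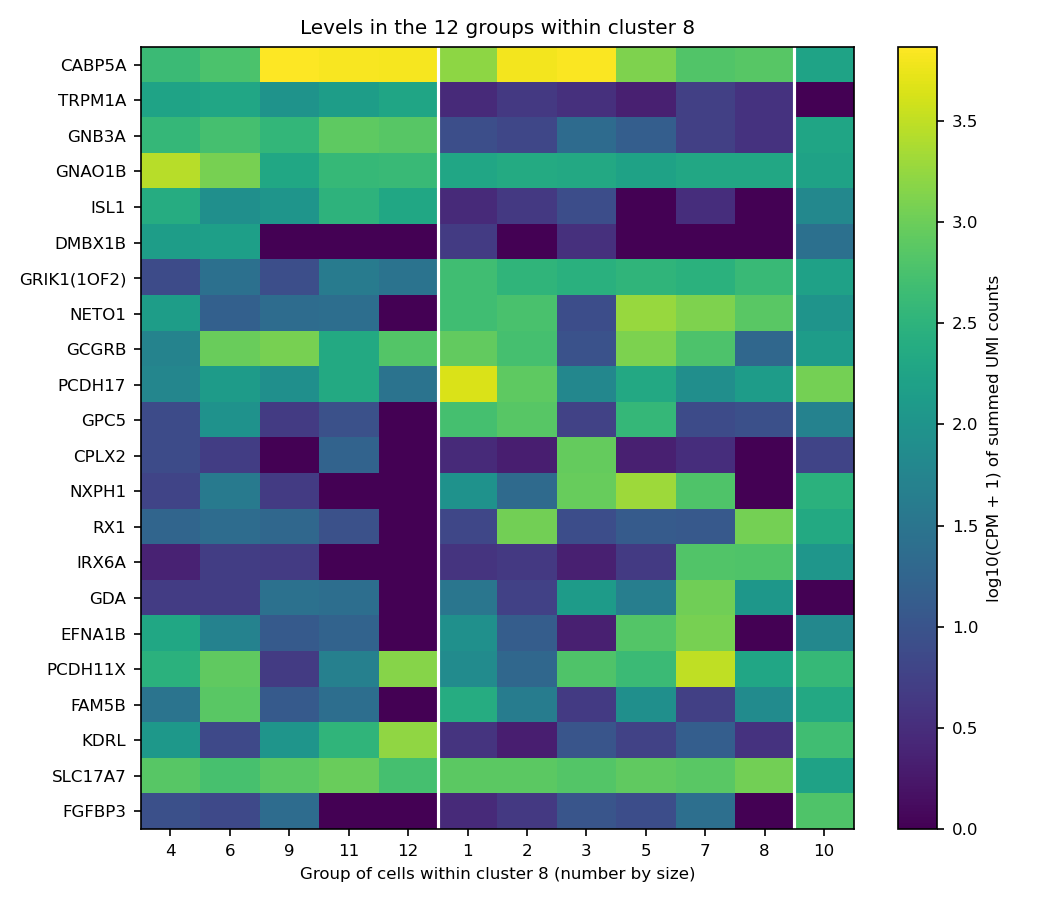
Levels of 22 genes (rows, log10 of CPM + 1 by colour) in the 12 groups of cells within cluster 8 (columns), with white lines between the groups high in TRPM1A, those high in GRIK1(1OF2), and group 10. TRPM1A, GNB3A and ISL1 are high on the left and GRIK1(1OF2) in the middle, CABP5A is high in both, and FGFBP3 is highest in group 10 at 632 CPM.

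**Figure D3:**
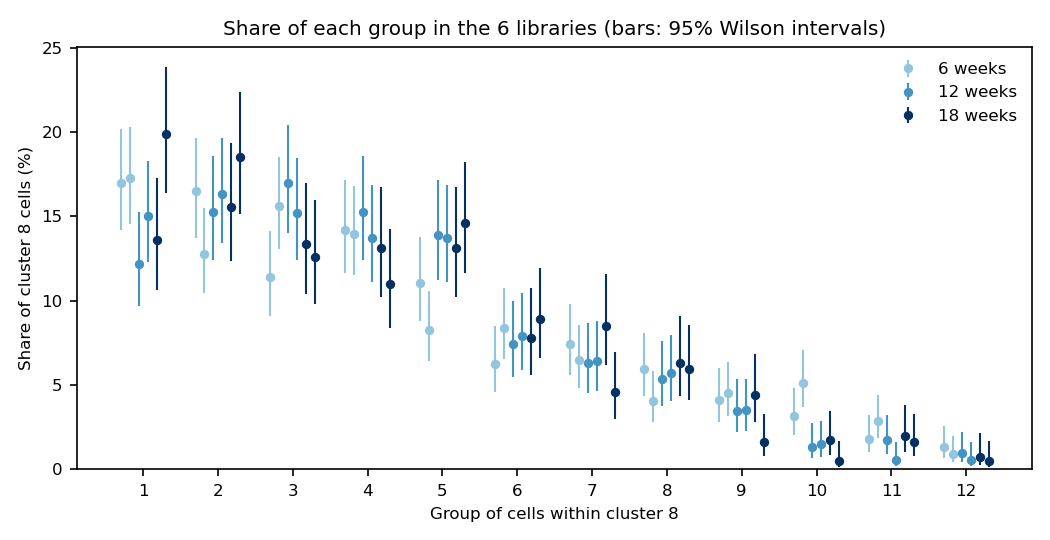
Share of cluster 8 cells (%) in each of its 12 groups, with 1 point per library from 6 to 18 weeks and 95% Wilson intervals. The libraries overlap in most groups, and in group 10 the 6-week-old libraries (3.13% and 5.10%) lie above the others.

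Age was tested within cluster 8 by edgeR's quasi-likelihood test on the UMIs summed per library. A gene was called at a Benjamini-Hochberg adjusted p under 0.05, and levels by library are CPM scaled by trimmed mean of M values (TMM). Between 18 and 6 weeks, 241 of 11042 genes were called, or 2.18%, of which 102 (0.924%) rose and 139 (1.26%) fell. The rises included 4 heat shock genes, and the falls the 7SK and ribosomal RNAs, 6 histone entries, 12 respiratory chain genes and 8 ribosomal protein genes. For 15 of the 241 the change also differed from that of the other bipolar cells by the interaction test given at the end, and for the rest no difference was called. The median change over all genes tested was 0.00 on the log2 scale, and the median size among called genes was 0.92. The 6- and 18-week-old libraries did not overlap in 45% of the genes tested (4965 of 11042). The largest named rises and falls were chosen among such genes, so their lack of overlap adds no support. In 216 of the 241 genes the 12-week mean lay between those at 6 and 18 weeks. Choosing genes by the gap between those ages favours this, so the count does not show a gradual course. Single libraries bore on the count, since it was 113 or 79 without 6-week library 1 or 2 and 76 without 18-week library 2. DESeq2 called 117, and thinning each cell to 1000 UMIs also left 117.

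Heat shock genes gave the clearest rises, with 4 of 20 tested called, against 0.924% of all genes that rose. The inducible HSP70 entry HSPA1A (XLOC_003379) stood at 250 and 155 CPM at 6 weeks, 826 and 603 CPM at 12 weeks and 1990 and 619 CPM at 18 weeks. All 12- and 18-week-old libraries were above both 6-week-old ones, and the 18-week-old libraries differed widely from each other. Its log2 fold change between 18 and 6 weeks was 2.68 ± 0.35 (SE, edgeR adjusted p = 2e-04), or 6.40-fold. The second HSPA1A entry (XLOC_002541) stood at 1355 and 1236, 2817 and 2223, and 4148 and 2451 CPM in the same order, a log2 change of 1.35 ± 0.20 (adjusted p = 7.8e-04). The HSP40 co-chaperone DNAJA4 was at 209 and 244 CPM at 6 weeks, 464 and 329 CPM at 12 weeks and 511 and 484 CPM at 18 weeks (log2 change 1.14 ± 0.17, adjusted p = 8.1e-04). For all 3 entries the level was higher at 18 weeks in 8 of the 8 largest groups of cells, and the call held under every alternative tried. The groups share the libraries whose sums gave the calls. This and later counts of groups are therefore a description and not independent support. DNAJB5(2OF2), also an HSP40, was at 484 and 538 CPM at 18 weeks and 321 and 290 CPM at 6 weeks (log2 change 0.74), and lost its call without 18-week library 2 or either 6-week library (adjusted p from 0.054 to 0.161) and with the same mix of groups in every library (0.0827). The list's median log2 change was 0.19. The 2 HSPA1A entries share a name, and whether reads were split between them, or between other entries whose names end in 1OF2 and the like, was not tested.

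Genes of the glucocorticoid response rose with them in part. FKBP5, a co-chaperone of the glucocorticoid receptor, stood at 355 and 322 CPM at 6 weeks, 543 and 474 CPM at 12 weeks and 689 and 740 CPM at 18 weeks, without overlap between any 2 ages. Its log2 change between 18 and 6 weeks was 1.08 ± 0.15 (edgeR adjusted p = 3.6e-04), held under every alternative, and was 1.09 in the other bipolar cells. KLF9 and TSC22D3, which glucocorticoids induce, were also called, with log2 changes of 0.98 and 0.89. The list that held these 3 genes joined glucocorticoid response and clock genes, and 3 of its 24 entries rose, against 0.924% of all genes. Its median was -0.01, which does not stand for the glucocorticoid genes alone. The immediate early gene JUN rose (240 and 185 CPM at 18 weeks, 101 and 116 CPM at 6 weeks, log2 change 0.96, adjusted p = 0.00396), 1 of 15 entries tested with a median of 0.42. The cyclin-dependent kinase inhibitor CDKN1BA rose as 1 of 12 entries on a list of cell cycle inhibitors and stress genes (92.05 and 127 CPM at 18 weeks, 61.7 and 62.5 CPM at 6 weeks, log2 change 0.83). On the interferon and antigen presentation list 2 of 7 tested rose, HELZ2 with a log2 change of 1.73 and ZC3HDC1L with 3.45, at 41.0 and 17.1 CPM at 18 weeks and 1.62 and 3.29 CPM at 6 weeks. ZC3HDC1L was placed there by its symbol, and the study gives this entry as optn, the optineurin gene. Of these 7 genes, 4 lost their call without 18-week library 2 (adjusted p from 0.0929 to 0.421) and 5 and 4 without 6-week library 1 and 2 (adjusted p from 0.0551 to 0.262), and 1 of them was lost without 18-week library 1 (adjusted p = 0.0943). After thinning JUN, TSC22D3, HELZ2 and CDKN1BA were not called (adjusted p from 0.0927 to 0.204), and TSC22D3 and HELZ2 were not called with the same mix of groups (0.0579 and 0.254). After thinning fewer entries were tested. The median of the glucocorticoid and clock list was then 0.10 over 22 entries, and that of the interferon and antigen presentation list -0.02 over 4.

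The other named rises were chosen by size alone and form no list. NTRK2A, the receptor of brain-derived neurotrophic factor, was at 50.3 and 39.5 CPM at 6 weeks, 67.0 and 108 CPM at 12 weeks and 128 and 133 CPM at 18 weeks. The 3 ages did not overlap, and the log2 change between 18 and 6 weeks was 1.54 ± 0.21 (edgeR adjusted p = 5.4e-04), held under every alternative and seen in 7 of the 8 largest groups. The AMPA receptor auxiliary subunit GSG1L(1OF2), found mainly in group 2, was at 77.1 and 125 CPM at 18 weeks and 44.6 and 42.8 CPM at 6 weeks (log2 change 1.23). CRHBP(1OF2), almost confined to group 8, was at 107 and 88.5 CPM at 18 weeks and 58.4 and 22.2 CPM at 6 weeks (log2 change 1.26). The progesterone receptor PGR, the MAP kinase phosphatase DUSP4, the protein kinase C gene PRKCHA, LUZP2 and SI:CH211-193K19.2 were the other large rises, with log2 changes of 1.04 to 1.44. Of these 8 genes, 5 lost their call without 18-week library 2 (log2 changes of 0.82 to 1.14, adjusted p from 0.0841 to 0.175), and 2, 4 and 1 without 6-week library 1, 6-week library 2 and 18-week library 1. After thinning SI:CH211-193K19.2, PRKCHA, PGR, DUSP4 and LUZP2 were not called (adjusted p from 0.0906 to 0.389), nor was PRKCHA with the same mix of groups (0.0790).

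Few genes of the synaptic lists were called. The counts that follow stand beside 0.924% of all genes that rose and 1.26% that fell. Among ON pathway entries 1 of 18 was called, the glutamate transporter SLC1A7(2OF2), which stood at 60.9 and 60.9 CPM at 6 weeks, 78.7 and 64.1 CPM at 12 weeks and 119 and 118 CPM at 18 weeks. Its 18-week-old libraries were well above all others (log2 change against 6 weeks 0.96 ± 0.18, edgeR adjusted p = 0.0064). Of 15 inhibitory receptor entries 2 rose, both GABA-A subunits: GABRB2(2OF2) at 172 and 195 CPM at 18 weeks and 114 and 118 CPM at 6 weeks, and GABRA6B at 447 and 560 CPM and 345 and 323 CPM. Of 19 potassium and HCN channel entries 1 rose, KCND2, at 279 and 352 CPM at 18 weeks and 213 and 160 CPM at 6 weeks (log2 change 0.76). GABRB2(2OF2), GABRA6B and KCND2 were all highest in group 5, and the 2 GABA-A subunits were no longer called when every library was given the same mix of groups (adjusted p = 0.167 and 0.0695) or after thinning (0.0771 and 0.0862). All 4 genes lost their call without 6-week library 2 (adjusted p from 0.0585 to 0.303), and 3 of them without 18-week library 2 or 6-week library 1. The list medians were -0.26 (ON pathway), 0.06 (inhibitory receptors) and 0.23 (potassium and HCN channels).

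In contrast, edgeR called no change in the ribbon release or OFF pathway lists. Of all 11042 genes tested, 790 were higher and 846 lower at an unadjusted p under 0.05. Of 41 ribbon release entries 4 were higher and 3 lower at that threshold, DESeq2 called 0, and the median log2 change was -0.09. Of 15 OFF pathway entries 2 were higher and 1 lower at an unadjusted p under 0.05, DESeq2 called 1, and the median was -0.03. After thinning the OFF pathway median was 0.10 over the 13 entries tested. For adhesion and wiring, 1 of 51 fell, the cadherin CDH7 (2 OF 2), which was listed at 0 in both 18-week-old libraries and averaged 10.2 CPM at 6 weeks, at least 3.05-fold lower with 3 counts per library as the floor. Its call was lost without 6-week library 1 or either 18-week library (adjusted p from 0.0694 to 0.207), and it was highest in group 10 (108 CPM). The median of that list was -0.07, and stayed so with CDH7 (2 OF 2) at its bound. Of all genes tested, 1.26% fell.

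Of 41 bipolar identity entries tested 3 fell and 0 rose by edgeR, against 1.26% and 0.924% of all genes. At an unadjusted p under 0.05, 1 was higher and 10 lower, against 790 and 846 of all 11042 genes. DESeq2 called 1 of the list. BHLHE23, a basic helix-loop-helix factor needed by rod bipolar cells in mouse, stood at 475 and 484 CPM at 6 weeks, 341 and 375 CPM at 12 weeks and 326 and 207 CPM at 18 weeks. All later libraries were below both 6-week-old ones, the log2 change between 18 and 6 weeks was -0.86 ± 0.17 (edgeR adjusted p = 0.012), and it was lower at 18 weeks in 8 of the 8 largest groups. DMBX1B was at 17.4 and 19.98 CPM at 18 weeks and 48.7 and 33.7 CPM at 6 weeks (log2 change -1.13), and the calcium-binding protein CABP5B at 8.71 and 3.81 CPM and 41.4 and 23.9 CPM (log2 change -2.43). These 3 calls were lost without 18-week library 2 or 6-week library 1 (adjusted p from 0.0529 to 0.306), BHLHE23 also without 6-week library 2 and DMBX1B also without 18-week library 1. CABP5B was not called after thinning (0.216), DMBX1B not with the same mix of groups (0.0809), and neither without the cells of high UMI count (0.0791 and 0.0589). The median of the list was -0.16.

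**Figure D4:**
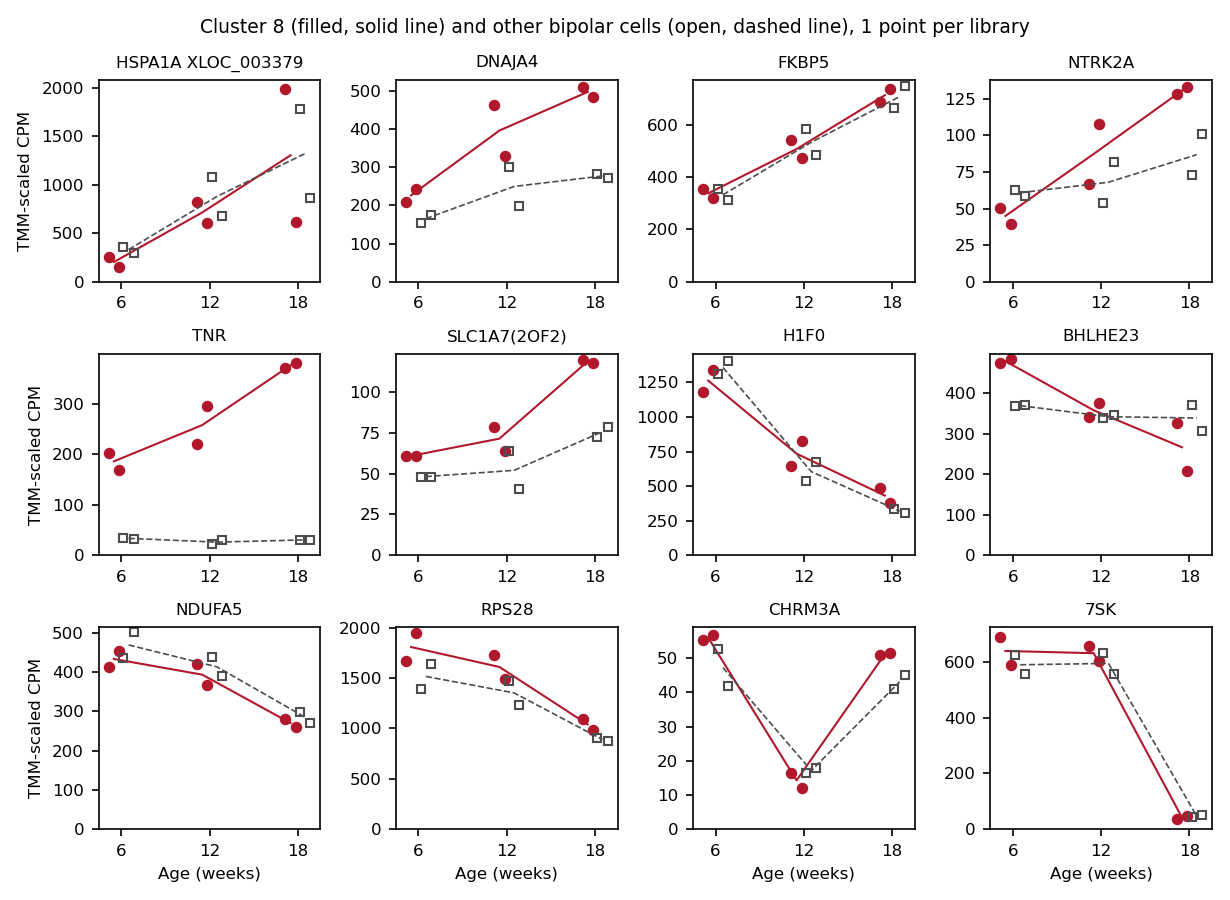
TMM-scaled CPM of 12 genes at 6, 12 and 18 weeks in cluster 8 (filled circles, solid line through the means) and the other bipolar cells (open squares, dashed line), with 1 point per library and axes from 0. HSPA1A, DNAJA4, FKBP5, NTRK2A and SLC1A7(2OF2) rise in cluster 8, TNR rises there while the other bipolar cells stay near 30 CPM, BHLHE23 falls there, and 7SK drops only at 18 weeks.

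7SK and the ribosomal RNAs fell. 7SK, the small nuclear RNA that restrains transcription elongation, was at 692 and 588 CPM at 6 weeks, 659 and 604 CPM at 12 weeks and 36.1 and 46.6 CPM at 18 weeks. The 12-week-old libraries were like the 6-week-old ones and both 18-week-old libraries were far below (log2 change against 6 weeks -3.93 ± 0.19, edgeR adjusted p = 6.7e-11). The 28S rRNA entry followed the same course, at 21635 and 26763, 30451 and 22052, and 7039 and 4703 CPM, as did the small subunit rRNA (log2 changes of -2.04 and -2.07). Both the rRNAs and 7SK fell alike in the other bipolar cells (log2 change of 7SK there -3.67). With 2 libraries per age, age and a difference in library preparation or sequencing between ages cannot be told apart. Without the rRNA, 7SK and haemoglobin entries, 233 genes were called.

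Of 16 histone entries tested 6 fell by edgeR and 3 by DESeq2, and 1.26% of all genes fell by edgeR. All 16 had a negative log2 change, with a median of -0.78, and after thinning the median was -0.33 over the 10 entries tested. The linker histone H1F0 stood at 1184 and 1341 CPM at 6 weeks, 644 and 825 CPM at 12 weeks and 488 and 376 CPM at 18 weeks. No 2 ages overlapped, the log2 change between 18 and 6 weeks was -1.55 ± 0.17 (edgeR adjusted p = 1.2e-05), and the call held under every alternative. The variants H2AFVA and H3F3B.1 fell with log2 changes of -0.85 and -0.68, and the 3 entries named HIST1H2BD(2OF2), which share a name and are low, were at 0 to 9.51 CPM at 18 weeks and 9.74 to 29.2 CPM at 6 weeks. Except H1F0, the histone calls were lost without 18-week library 2 or without 6-week library 2 (adjusted p from 0.0900 to 0.360), 3 of them without 18-week library 1 and 2 without 6-week library 1. H2AFVA and H3F3B.1 were highest in group 10 (766 and 787 CPM), whose share was largest at 6 weeks, and were still called when every library was given the same mix of the 8 largest groups (adjusted p = 0.0297 and 0.0467). Of the HIST1H2BD(2OF2) entries, XLOC_007376 lost its call under that mix (0.180), XLOC_005528 kept it (0.0121) and XLOC_013973 gave no value there. After thinning H3F3B.1 and XLOC_007376 were not called (0.0612 and 0.358).

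Some genes of the respiratory chain and of ribosomes fell, in counts given here against 1.26% of all genes that fell. Of 62 respiratory chain entries 12 fell, and 54 had a negative log2 change, with a median of -0.38. NDUFA5, a complex I subunit, stood at 412 and 455 CPM at 6 weeks, 421 and 367 CPM at 12 weeks and 280 and 261 CPM at 18 weeks (log2 change -0.68 ± 0.15, edgeR adjusted p = 0.016, and -0.72 in the other bipolar cells). The 18-week-old libraries were below all others, and the same was true of the ATP synthase gene ATP5L, at 614 and 521 CPM at 18 weeks and 916 and 896 CPM at 6 weeks. The other 10 were NDUFA7, NDUFA11, NDUFB6, NDUFV3, SDHD, UQCRQ, COX4I1, ATP5H, ATP5J and ATP5G3B, which cover complexes I to V, with log2 changes from -0.81 to -0.56. Of 75 ribosomal protein entries 8 fell and 74 had a negative log2 change, with a median of -0.35. RPS28 stood at 1667 and 1948 CPM at 6 weeks, 1727 and 1491 CPM at 12 weeks and 1092 and 986 CPM at 18 weeks (log2 change -0.80 ± 0.15, adjusted p = 0.0064, and -0.77 in the other bipolar cells). All 12 respiratory chain calls and all 8 ribosomal calls were lost without 18-week library 2 or without 6-week library 2 (adjusted p from 0.0684 to 0.415), with log2 changes between -0.86 and -0.45, and 11 and 2 of them were lost without 6-week library 1. The medians of both lists were also negative after thinning, at -0.50 and -0.35.

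Other large falls were in SMPDL3A, a phosphodiesterase (87.1 and 32.4 CPM at 18 weeks, 149 and 244 CPM at 6 weeks, log2 change -1.78), the bromodomain gene BRD7 (-1.23), the zinc-finger gene CASZ1 (-1.17), MARCKSB (-1.63), and the entries OLA.26123 (XLOC_012028, -2.43), SI:CH211-113A14.10 (-2.35) and LOC107393658 (-1.20). CASZ1 lost its call without 18-week library 2 or 6-week library 1 (adjusted p = 0.397 and 0.345), after thinning (0.121) and with the same mix of groups (0.147). SI:CH211-113A14.10 lost it after thinning (log2 change -1.48, adjusted p = 0.0569), and SMPDL3A under DESeq2. KDRL, a vascular endothelial growth factor receptor, was at 34.8 and 20.9 CPM at 18 weeks and 70.6 and 135 CPM at 6 weeks (log2 change -1.92). It was highest in the small group 12 at 1667 CPM, and with the same mix of the 8 largest groups in every library its log2 change was 0.03 (adjusted p = 0.982). MARCKSB, highest in group 10, kept a log2 change of -0.91 (adjusted p = 0.026) under that mix, which leaves out groups 10 and 12.

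Lists for which edgeR called no member were the proteasome, sterol synthesis and antioxidant genes. At an unadjusted p under 0.05, 790 of all 11042 genes were higher and 846 lower. Of 32 proteasome entries 0 were higher and 1 lower at that threshold, of 14 sterol entries 0 and 2, and of 16 antioxidant entries 1 and 3. The list medians were -0.16, -0.29 and -0.04. DESeq2 called 0 on each of the 3 lists.

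None of the 241 genes (0) was called between 12 and 6 weeks. Between 12 and 6 weeks edgeR called 4 of 11042 genes (0.0362%), of which 0 (0.0%) rose and 4 (0.0362%) fell. At an unadjusted p under 0.05, 310 were higher and 341 lower, and DESeq2 called 0 and 2. The count was 31 without either 18-week library, 15 and 11 without 6-week library 1 and 2, and 18 without 12-week library 2. CHRM3A, a muscarinic acetylcholine receptor, did not follow a gradual course. It stood at 55.2 and 56.8 CPM at 6 weeks, 16.5 and 12.1 CPM at 12 weeks and 51.0 and 51.4 CPM at 18 weeks, so both 12-week-old libraries were below all others (log2 change 12 against 6 weeks -1.99, adjusted p = 0.0012). The other bipolar cells showed the same dip, at 52.6 and 41.9, 16.4 and 17.7, and 41.1 and 45.1 CPM, and DESeq2 did not call it (adjusted p = 0.1). The other 3 calls fell outside the naming rule and are given because the count was small. LOC107373925 had the same dip, at 41.4 and 41.1 CPM at 6 weeks, 7.05 and 5.57 CPM at 12 weeks and 41.05 and 39.0 CPM at 18 weeks, as had the unnamed entry Nfu_p_1_030969 (157 and 155, 23.5 and 55.7, and 264 and 230 CPM). Nfu_g_1_026083 was at 0 in both 12-week-old libraries. Between 18 and 12 weeks 48 genes were called (0.435%), of which 16 (0.145%) rose and 32 (0.29%) fell, 37 of them also called between 18 and 6 weeks. That count was 25 without 18-week library 2, 76 without 18-week library 1 and 29 without 12-week library 1.

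Transcripts of other cell types were lower than in their own types, by the smallest ratio for the RPE list. The summed rod markers were at 3851 to 5479 CPM in cluster 8, against 122134 CPM in rods and 4753 CPM in the other bipolar cells. Müller glia markers summed to 283 to 565 CPM, against 14676 CPM in Müller glia, and amacrine markers to 68.5 to 143 CPM. RPE markers summed to 306 to 428 CPM (mean 362 CPM), with TYRP1B at 0. They averaged 2414 CPM in RPE cells and 216 CPM in the other bipolar cells. The summed immune markers were at 4.76 and 14.9 CPM at 6 weeks, 20.1 and 21.8 CPM at 12 weeks and 67.7 and 47.0 CPM at 18 weeks, against 24008 CPM in immune cells and 30.2 CPM in the other bipolar cells, with CSF1RA at 0. APOEB, the only 1 of the 5 entries with enough counts to test, rose (57.2 and 37.1 CPM at 18 weeks, 1.62 and 14.0 CPM at 6 weeks, log2 change 2.56, adjusted p = 0.00396). The markers of differentiating cells summed to 58.7 and 106 CPM at 6 weeks, 41.4 and 48.2 CPM at 12 weeks and 35.1 and 26.4 CPM at 18 weeks, with MKI67 at 0, and FGFBP3, 1 of 3 tested, fell (19.9 and 1.90 CPM at 18 weeks, 31.7 and 66.6 CPM at 6 weeks). The part of immune or differentiating cells in the other changes was not tested.

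The last comparison asked whether cluster 8 changed with age differently from the other bipolar cells of the same libraries. The interaction term was called in 45 of 14241 genes (0.316%), with 25 (0.176%) positive, that is a more positive change in cluster 8, and 20 (0.14%) negative. The count was 7 without 6-week library 2, 70 without 18-week library 1 and 9 after thinning. Among the 23 named genes, TNR, BHLHE23 and H1F0 kept the call in all 11 alternatives. None of these 11 held the mix of groups within cluster 8 constant.

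TNR gave the clearest difference. It was at 202 and 169 CPM at 6 weeks, 220 and 295 CPM at 12 weeks and 371 and 381 CPM at 18 weeks in cluster 8, and at 34.3 and 32.9, 22.1 and 30.2, and 30.4 and 30.7 CPM in the other bipolar cells. In cluster 8 the libraries rose in order of age, whereas outside it both 18-week-old libraries lay between those at 12 and 6 weeks. Its log2 change between 18 and 6 weeks was 1.02 ± 0.16 in cluster 8 and -0.14 ± 0.15 in the others, and the difference was 1.17 ± 0.16 (edgeR adjusted p = 2.2e-05). The rise was 1.10 with the same mix of groups in every library and was seen in 7 of the 8 largest groups.

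BHLHE23 was the counterpart among falls. In the other bipolar cells it stood at 368 and 371, 339 and 345, and 372 and 306 CPM from 6 to 18 weeks, a log2 change of -0.13 ± 0.11, and the difference was -0.73 ± 0.11 (adjusted p = 6.4e-05). BHLHE23 was highest in group 9 (1232 CPM). With the same mix of groups, which leaves out group 9, its change in cluster 8 was -0.58 in place of -0.86 (edgeR adjusted p = 0.048). H1F0 fell in both, with a log2 change of -1.55 in cluster 8 and -2.08 in the others, so the difference of 0.54 was a smaller fall (adjusted p = 1.4e-04). SIX3 was at 820 and 776 CPM at 18 weeks and 926 and 920 CPM at 6 weeks in cluster 8, a log2 change of -0.21, whereas the others had -0.70 (difference 0.52, adjusted p = 7.4e-04).

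NETO1 was also called. NETO1 was at 634 and 761 CPM at 18 weeks and 493 and 451 CPM at 6 weeks in cluster 8, and at 277 and 318 CPM and 303 and 305 CPM in the other bipolar cells (difference 0.61 ± 0.10, adjusted p = 2.6e-04). It was highest in group 5, and with the same mix of groups its change in cluster 8 was 0.24 in place of 0.57. The differences of KCND2 and GSG1L(1OF2) were 0.61 and 1.14, and that of NTRK2A was 1.03 ± 0.20 (adjusted p = 0.0049), with 72.7 and 101 CPM at 18 weeks and 62.7 and 58.9 CPM at 6 weeks in the other bipolar cells. The 2 HSPA1A entries had differences of 0.60 and 0.31, with changes in the other bipolar cells of 2.00 and 1.02.

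Of 59 adhesion and wiring entries tested 4 had a called difference, against 0.316% of all genes. Of these, 1 was positive and 3 were negative, and the list median was -0.15. The protocadherin PCDH7B was at 439 and 497 CPM at 18 weeks and 442 and 381 CPM at 6 weeks in cluster 8, and at 69.4 and 77.2 CPM and 99.7 and 83.2 CPM in the other bipolar cells (difference 0.52 ± 0.12, edgeR adjusted p = 0.0346). PCDH7B was highest in group 5 (2304 CPM), and with the same mix of groups its change in cluster 8 was -0.07 in place of 0.19, neither of them called. The leucine-rich repeat gene LRRTM4(2OF4) was at 39.8 and 26.6 CPM at 18 weeks and 50.3 and 49.4 CPM at 6 weeks in cluster 8, and at 209 and 169 CPM and 131 and 157 CPM in the others (difference -0.98 ± 0.23, adjusted p = 0.0346). The netrin receptor UNC5C had log2 changes of -0.44 in cluster 8 and 0.13 in the others (difference -0.56 ± 0.14, adjusted p = 0.0477). These 3 differences were called in 5, 5 and 7 of the 11 alternatives. The contactin CNTN5 was too low in cluster 8 for its own age test, with 0 and 1 UMIs at 18 weeks and 25 and 8 UMIs at 6 weeks, so its fitted difference (adjusted p = 0.0083) gives no size.

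Most other named differences rested on lower levels in one of the cell sets. KNDC1 (1 OF 2) was at 19.9 and 42.8 CPM at 18 weeks and 12.2 and 6.58 CPM at 6 weeks in cluster 8, against 205 and 226 CPM and 203 and 174 CPM in the others (difference 1.61). The acid-sensing channel ASIC1 (2 OF 2), at 109 and 119 CPM and 93.4 and 94.6 CPM in cluster 8, was at 2.61 and 3.37 CPM at 18 weeks and 6.56 and 7.36 CPM at 6 weeks in the others (difference 1.48), and the liprin PPFIBP2 had a difference of 1.10. The negative differences were THSD7A (-1.94), CU855896.1 (-1.89), CABP5B (-1.80), the gap junction gene GJD2(1OF2) (-1.52), BX649356.1 (-1.44) and BASP1 (-1.34), all of them below 50 CPM in every library of cluster 8. Of the 23 genes, 17 lost the call without 6-week library 2, 14 without 18-week library 2, 10 without 6-week library 1, 8 without 18-week library 1, 17 after thinning and 5 without cluster 10 and the Vip neurons.

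**Figure D5:**
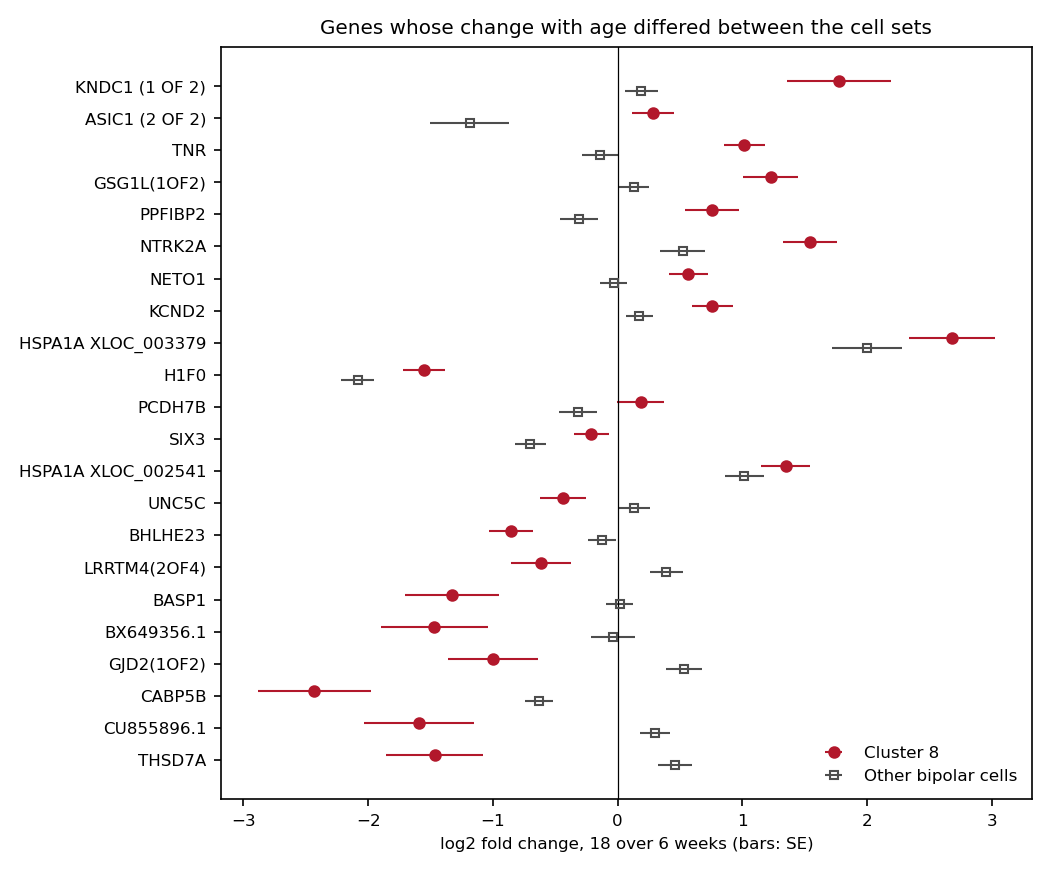
Log2 fold change between 18 and 6 weeks with its standard error, in cluster 8 (filled circles) and the other bipolar cells (open squares), for 22 of the 23 named genes with a called difference (CNTN5 was too low in cluster 8), sorted by that difference. TNR lies at 1.02 in cluster 8 and -0.14 outside it, and BHLHE23 at -0.86 and -0.13.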

How the data were processed

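Single-cell RNA-seq had been made from 6 libraries, 2 each of 6-, 12- and 18-week-old retinas, and the submitters' processing notes name Cell Ranger 7.0.1. The authors deposited raw UMI counts of 24989 genes in 37243 cells, kept above 1000 UMIs, with a table of each cell's library, cell type and cluster. Per the study's methods, reads were counted on a custom transcriptome of the GRZ assembly with NFINdb annotation and Iso-Seq transcripts. The treatment of doublets is not given in the sources used here.

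Samples were grouped by the age in the labels. Counts of cluster 8, and of the other cells annotated as bipolar, were summed per library. Ages were compared with edgeR 4.0.16 (glmQLFit and glmQLFTest, TMM, filterByExpr, all 6 libraries in 1 fit, Benjamini-Hochberg adjustment over all genes tested), and the difference of change with library as the block. Shares and UMIs per cell were compared by two-sided exact permutation tests. Groups within cluster 8 came from Leiden clustering in scanpy 1.11.5 (1500 genes, 20 principal components, 20 neighbours). The code was tested on simulated data. Alternatives were DESeq2 1.42.0 and its size factors, no filter on low counts, each library left out, only the libraries compared, a replicate block, cells thinned to 1000 UMIs, no rRNA, 7SK or haemoglobin entries, no cells above 2 times the median UMIs (78 cells, possible doublets), and, chosen after seeing the data, the same mix of the 8 largest groups in every library. That mix left out groups 9 to 12 and drew 275 to 471 cells per library at random, so fewer cells entered the fit.

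The named genes were members of fixed lists at 20 CPM or more or called, the 20 largest ratios at 100 CPM or more, the 12 largest rises and falls between 18 and 6 weeks at 50 CPM or more without overlap, up to 6 largest called differences in each direction, and genes called at 12 weeks. The members and the lists were chosen with earlier results of these data known. Depth was 797835 to 1272489 UMIs per library in cluster 8, which limits precision for genes of few CPM. Intervals cover counting error only. A few genes are not reported here.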

Additional observations from a re-analysis of the deposited data

Results flagged for a closer look

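In 23 named genes the change between 18 and 6 weeks differed between cluster 8 and the other bipolar cells by the interaction test of edgeR, and these are the results put forward for a closer look. More positive in cluster 8 were KNDC1 (1 OF 2) (difference of the log2 changes 1.61), ASIC1 (2 OF 2) (1.48), TNR (1.17), GSG1L(1OF2) (1.14), PPFIBP2 (1.10), NTRK2A (1.03), NETO1 (0.61), KCND2 (0.61), HSPA1A (0.60 for XLOC_003379 and 0.31 for XLOC_002541), H1F0 (0.54), SIX3 (0.52) and PCDH7B (0.52). More negative were THSD7A (-1.94), CU855896.1 (-1.89), CABP5B (-1.80), GJD2(1OF2) (-1.52), BX649356.1 (-1.44), BASP1 (-1.34), LRRTM4(2OF4) (-0.98), BHLHE23 (-0.73) and UNC5C (-0.56), and CNTN5, whose fitted value of -4.42 rests on 1 UMI in cluster 8 at 18 weeks and is no bound. TNR, BHLHE23 and H1F0 are the ones whose call remained in all 11 alternatives, none of which held the mix of groups constant. Groups of 2 libraries are too small for a search for single libraries that stand apart.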

How the results depend on the processing

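Between 18 and 6 weeks edgeR called 241 genes, DESeq2 117, no low-count filter 465, thinning 117, and leaving out each library in turn 76 to 278. Between 12 and 6 weeks the 4 calls became 2 under DESeq2, 56 without the filter, 31 in the libraries compared alone, 11 after thinning, 15 with the same mix of groups and 6 to 31 with a library left out. Between 18 and 12 weeks the 48 became 26, 138 and 20 under DESeq2, no filter and thinning, and 25 to 76 with a library left out. The 45 differences became 68 without the filter, 9 after thinning and 7 to 70 with a library left out. With a library left out, the difference in the share of cluster 8 between 18 and 6 weeks ranged from -1.63 to -0.189 percentage points. The same difference in median UMIs ranged from -33 to 283.5.

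Same-numbered libraries did not deviate together (correlations of -0.042, -0.012 and 0.128), so the numbers do not pair them. A replicate block gave 296, 28 and 65 calls for the 3 pairs of ages, 44 differences and a share difference of -0.909. Over the named genes, 957 alternative values for changes with age kept direction and their side of the threshold, 195 kept direction and lost the call, 5 gained it and 1 turned, KDRL with the same mix of groups (log2 change 0.032). For differences 182 kept the call and 71 lost it. With a library left out fewer samples enter the fit. The cause of the other shifts was not tested.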
